A study of Mus musculus with 8 samples.

Results

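The genes described here were those of the extracellular matrix and of integrin adhesion in EO771 cells, a mouse mammary tumour cell line. They were chosen by name, as the collagens, laminins, integrins, thrombospondins and Fat cadherins together with Fn1, Sparc, Hspg2, Nid1 and Nid2, and by a mean raw count of at least 5 over the 8 libraries. Of 49997 genes in the count table, 92 carried such a name and 36 also reached the count. The 31 whose mean reached 10 counts entered the tests, which were run over all 6901 genes above that minimum. Just inside the limit of 5 were Itga5, with a mean of 5.5 counts, and Itga2b, with 8.25, and just outside it were Col4a3 and Nid2, each with 4.375.

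RNA-seq was carried out on 4 groups with 2 libraries each, all from the same cell line, described here as 2 experiments of 2 groups. In the first, EO771 cells received vehicle (saline with DMSO at 2%) or 12-HETE at 100 nM, a lipid mediator made from arachidonic acid, over 48 h. In the second, cells carried an empty vector or a vector for overexpression of ADAR1 p150, the interferon-inducible isoform of an enzyme that edits adenosine in double-stranded RNA. The cells of the second experiment were transduced, so their vector libraries and the vehicle libraries of the first also differ by transduction. The labels do not tell whether the libraries of a group came from separate cultures, and the paper describes the editing comparison of these treatments as independent experiments. P-values rest on the spread between these libraries, estimated with information shared across all genes tested and not from each gene alone. Any part of this spread that is technical cannot be told apart.

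The extracellular matrix is the network of secreted proteins that surrounds cells. Its basement membrane is a sheet of type IV collagen and laminin, linked by nidogen and perlecan, on which epithelial cells rest, whereas fibrillar collagens and fibronectin fill the stroma. Integrins are receptors made of an alpha and a beta subunit that bind these proteins outside the cell and couple them to the cytoskeleton inside, and in mammary tumours they take part in adhesion, migration and the activation of growth factors stored in the matrix.

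Total counts per library were between 1101767 and 1537037, and 3 counts corresponded to 2.11 to 2.74 CPM (the count scaled to a common library size by TMM factors). The members together held 0.137% to 0.207% of the counts. Adar itself was at 2 and 8 counts in vector and at 181 and 140 in ADAR1 p150. Of the epithelial markers, Krt8 and Krt18 were present in every library whereas Cdh1 was at 0 in all, and leukocyte markers summed to 0 or 1 count per library. The endothelial markers Pecam1 and Cdh5 summed to 10 and 7 counts in vehicle, 2 and 0 in 12-HETE, 5 and 8 in vector and 1 and 8 in ADAR1 p150.

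Fold changes and their p-values came from the quasi-likelihood test of edgeR and were adjusted across every gene tested (Benjamini-Hochberg). To be called, a gene needed a change of at least 2-fold beside an adjusted p below 0.05. By this rule 8 members were called in at least one of the treatment contrasts, and the 7 reported here are placed on GRCm38. Itgb6 lies at chr2:60598292-60722643 on the minus strand. Itgb1bp1 lies at chr12:21240825-21286284, Itgb2l at chr16:96422288-96443619 and Sparc at chr11:55394500-55423183, also on the minus strand. Col4a4 lies on the minus strand at chr1:82448423-82586849, whereas Col14a1 at chr15:55307750-55520803 and Col23a1 at chr11:51289920-51583918 lie on the plus strand. All are protein-coding genes, and reads were summed over their exons.

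Promoter windows in the RefSeq table of GRCm38.p6 covered 29 of the 36 members, with 33 windows from 250 bases before to 50 bases after a start. Short motifs, 5 in all, were searched on both strands. The GC box, GGGCGG, was in 16 of the 33 windows (48.5%) and in 35.9% of 32544 promoter windows of the same length, whereas the CCAAT box was in 7 (21.2%) against 37.4%. The core of the interferon-stimulated response element, TTTCNNTTT, was in 6 windows of 5 members (18.2%) against 10.5%. The TATA box, TATAAA, was in 2 windows against 13.6% of all, and an AP-1 site, TGANTCA, in 1 against 7.79%. The bases from 250 to 51 before the start are shown for 3 members that carry the largest fall with 12-HETE and the rises of basement membrane genes with ADAR1 p150. Capitals mark the match to the interferon-stimulated response element core in Itgb6 (chr2:60722654-60722853, minus strand) and the GC boxes in Lama5 (chr2:180225910-180226109, minus strand) and Hspg2 (chr4:137468553-137468752, plus strand).
Itgb6: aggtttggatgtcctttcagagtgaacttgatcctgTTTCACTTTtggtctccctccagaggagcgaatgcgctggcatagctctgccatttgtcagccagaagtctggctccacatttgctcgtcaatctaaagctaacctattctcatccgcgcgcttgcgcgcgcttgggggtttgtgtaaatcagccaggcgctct
Lama5: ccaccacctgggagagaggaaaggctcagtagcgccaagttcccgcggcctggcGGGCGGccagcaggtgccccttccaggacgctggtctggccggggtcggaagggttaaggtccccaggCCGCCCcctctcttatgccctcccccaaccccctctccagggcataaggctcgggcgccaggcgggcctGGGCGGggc
Hspg2: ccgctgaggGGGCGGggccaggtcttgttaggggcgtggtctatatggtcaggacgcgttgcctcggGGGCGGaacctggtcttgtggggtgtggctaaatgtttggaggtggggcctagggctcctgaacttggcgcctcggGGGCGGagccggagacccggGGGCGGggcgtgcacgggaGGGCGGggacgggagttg
A match is a run of letters and not a site shown to be bound. The single match in this Itgb6 window began at position -214 from the start, and a second Itgb6 window, around the start at position 60673693, had its match 35 bases after the start. The 300-base windows of Lama5 and Hspg2 held 4 and 5 GC boxes. Those of Sparc, Itgb1bp1, Itgb2l and Col4a4 held none of the 5 motifs.

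Levels were first compared between genes per kb of exon, as the mean of TMM-scaled CPM over the libraries divided by exon length. Fn1, which encodes fibronectin, was highest at 31.5 CPM per kb, followed by Itgb1, the beta subunit shared by most matrix-binding integrins, at 29.8, and by Col4a1, a chain of the common type IV collagen, at 19.6. Next came the laminin receptor subunits Itgb4 at 14.3 and Itga6 at 13.7 CPM per kb. The order of Fn1 and Itgb1 turned between groups, with 35.0 and 28.0 CPM per kb in vehicle and 33.8 and 37.1 in 12-HETE. At the low end were Itga1 at 0.60, Col4a4 at 0.77 and Itga5 at 0.89 CPM per kb. None of the 11 genes listed as fibrillar collagens reached the limit of 5 counts. Their highest mean was 1.75 counts, and Col1a2 was at 0 counts in all 8 libraries. Of the 22 basement membrane genes 11 were members, of 12 integrin alpha subunits with such a name 8, and of 9 beta subunits 6.

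**Figure D1:**
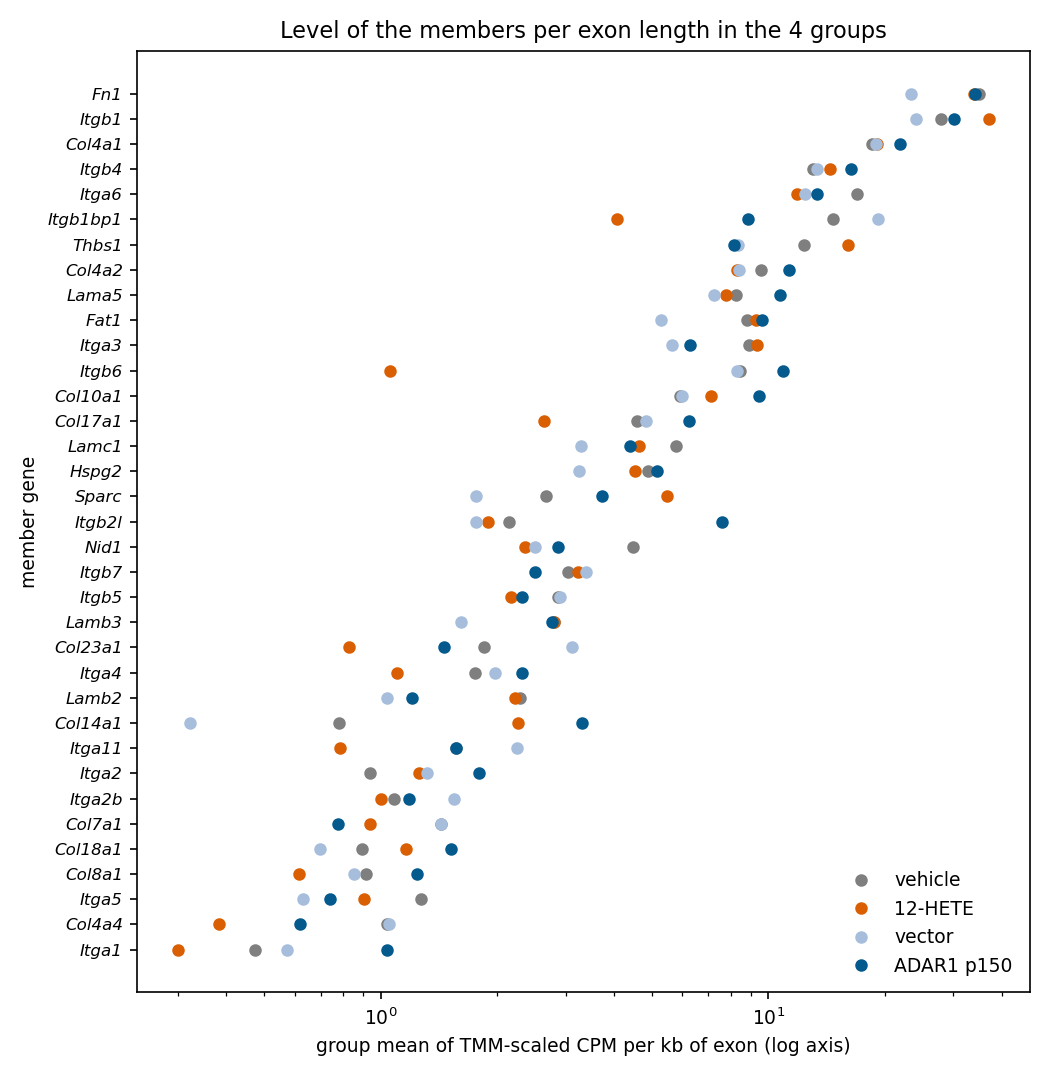
Level of 35 members in the 4 groups, as the group mean of TMM-scaled CPM per kb of exon on a log axis, with one point per group (2 libraries each) and genes ordered by their overall mean. Fn1 is at the top with an overall mean of 31.5, and the 12-HETE points of Itgb6 at 1.06 and Itgb1bp1 at 4.08 stand to the left of the other 3 groups.

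With 12-HETE, 2 of the 31 tested members were called higher, where 6.12% of all tested genes were, and 4 were called lower, where 8.25% of all were. By adjusted p alone 3 were higher (15.1% of all genes) and 7 lower (14.2% of all genes). The members called higher were Col14a1 and Sparc, and those called lower included Itgb6, Itgb1bp1 and Col4a4. Nid1, Itga6 and Col17a1 fell and Itgb1 rose by less than 2-fold. The median log2 fold change of the tested members was -0.11 beside 0.0044 over all genes.

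With ADAR1 p150, 2 members were called higher, where 8.11% of all tested genes were, and 3 lower, where 4.69% were. By adjusted p alone 6 were higher (14.5% of all genes) and 3 lower (11.1% of all genes). Col14a1 and Itgb2l were called higher, and those called lower included Itgb1bp1 and Col23a1. Fat1, Fn1, Hspg2 and Lama5 rose by less than 2-fold. The median log2 fold change was 0.32 beside 0.066 over all genes, and from 0.25 to 0.41 without 1 of the 4 libraries of this contrast.

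Col14a1 passed the minimum of 10 counts through the treated groups in which it was high, since its mean over the 4 control libraries was 4.5 counts. Itgb2l had a mean of 9.75 counts over the controls and of 10.2 outside ADAR1 p150. Sparc was at 11 and 13 counts in vehicle and at 6 and 9 in vector. Col4a4 just reached the minimum with a mean of 10, and its highest count, 18, was in vehicle replicate 4. For these reasons counts over the tested members describe these libraries and are not independent of the changes. The intervals of 30 of the 31 tested members are shown side by side by role.

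**Figure D2:**
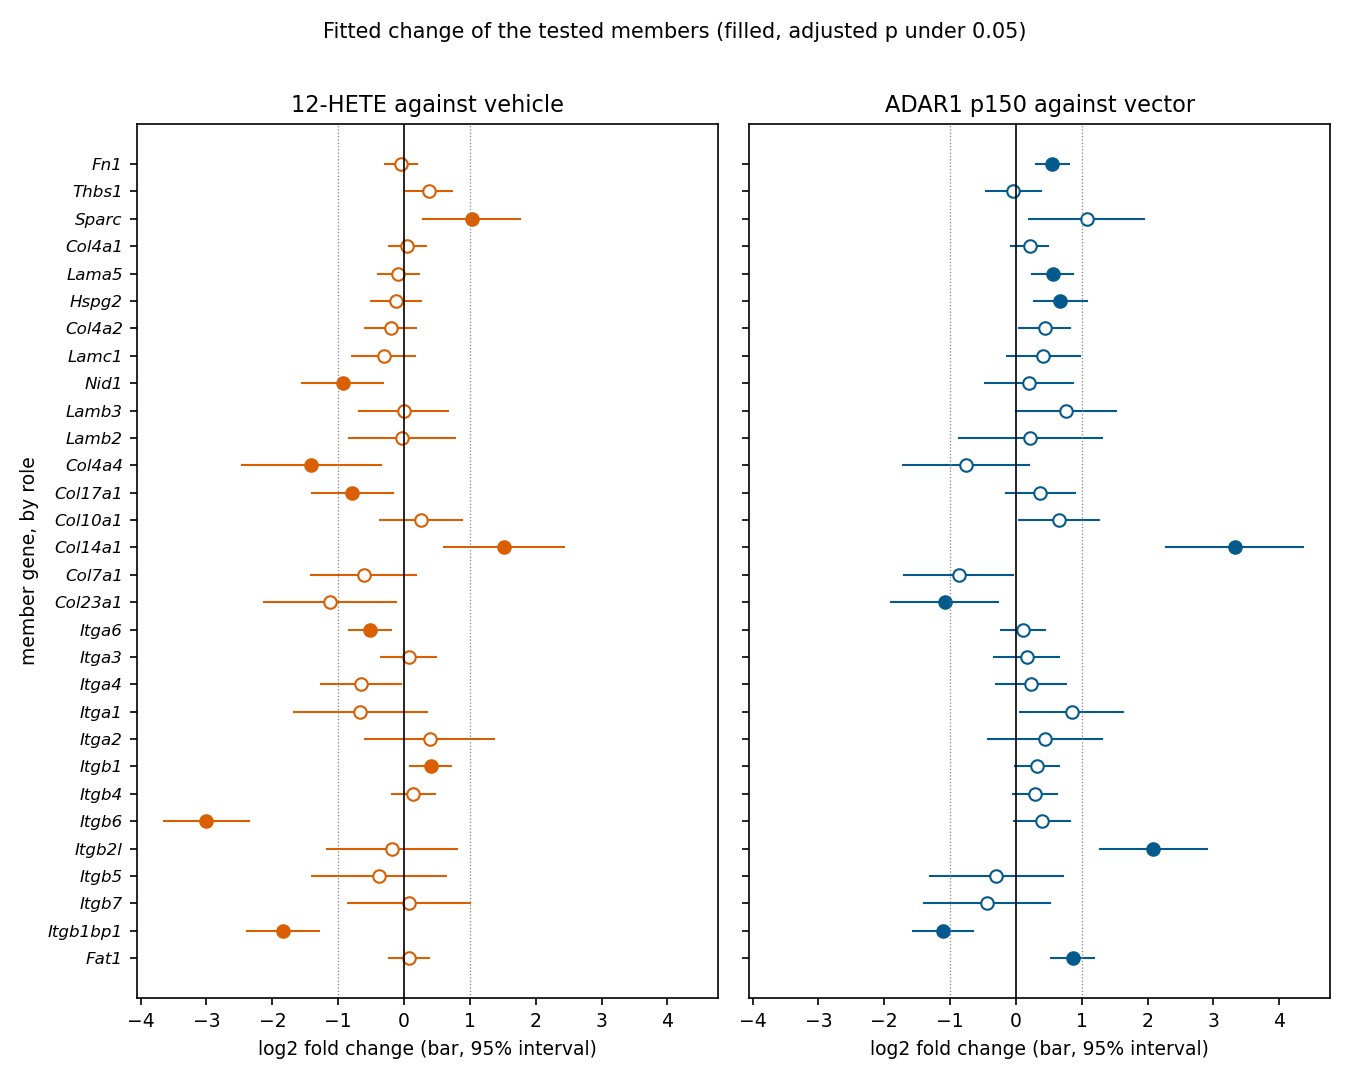
Fitted log2 fold change of 30 tested members with 12-HETE (left) and with ADAR1 p150 (right), as a point with its 95% interval, filled where the adjusted p was under 0.05. Dotted lines mark a 2-fold change, which Itgb6 passes at -3.0 on the left and Col14a1 at 3.32 on the right.

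Among the secreted glycoproteins, Fn1 was at 366 and 451 CPM in vehicle, at 421 and 369.9 in 12-HETE, at 254 and 290.1 in vector and at 450.2 and 346 in ADAR1 p150. Both vector libraries were below the other 6. Fn1 did not pass the test with 12-HETE, with a log2 fold change of -0.05 and a 95% interval from -0.29 to 0.19. With ADAR1 p150 it rose by 0.55 ± 0.12 on the log2 scale (SE, adjusted p = 8.56e-04), and the vector libraries were lower than vehicle by -0.59 (adjusted p = 0.0366). The mean in ADAR1 p150 was 0.97 times that in vehicle. Without ADAR1 p150 replicate 1 the rise of Fn1 was 0.35 (adjusted p = 0.0706).

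Sparc, a collagen-binding protein that modulates the contact of cells with matrix, was at 9.42 and 10.8 CPM in vehicle and at 19.3 and 22.2 in 12-HETE. In the second experiment it was at 5.48 and 7.86 CPM in vector and at 16.9 and 11.3 in ADAR1 p150. Treated libraries were above their controls without overlap in both experiments. On the log2 scale Sparc was higher by 1.03 ± 0.37 after 12-HETE (adjusted p = 0.0315) and by 1.07 ± 0.43 under ADAR1 p150 (adjusted p = 0.0643), so that only the first was called, and their difference was 0.05 (adjusted p = 0.97). The call with 12-HETE was lost in each fit without 1 of its 4 libraries, at adjusted p = 0.0669 to 0.159. Sparc held 6 to 29 counts per library.

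Thbs1, which encodes thrombospondin 1, an adhesive glycoprotein that can activate latent TGF-beta, was at 65.9 and 84.6 CPM in vehicle and at 101 and 94.96 in 12-HETE. The 12-HETE libraries were the higher ones, yet the log2 fold change of 0.38 ± 0.17 did not pass (adjusted p = 0.0983). In vector it was at 42.9 and 58.5 CPM and in ADAR1 p150 at 49.2 and 49.9, with overlapping groups and an adjusted p of 0.922.

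Among the basement membrane genes, 1 of the 10 tested members had a log2 fold change above 0 with 12-HETE and 8 of 10 with ADAR1 p150, beside 50.4% and 54.6% of all genes. Several of these values were close to 0, such as -0.03 for Lamb2 with 12-HETE, which was named after its values were seen. Between vector and vehicle 2 of the 10 were above 0, beside 49.0% of all genes, with a median of -0.39 beside -0.0083. The ADAR1 p150 changes were measured against these vector libraries, and the part of the control level in them was not tested. By adjusted p alone, Col4a4 and Nid1 were among those that fell with 12-HETE, whereas Lama5 and Hspg2 rose with ADAR1 p150.

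Lama5, the alpha chain of the laminins of many adult basement membranes, was at 85.6 and 102 CPM in vehicle, at 90.6 and 86.5 in 12-HETE, at 79.4 and 85.6 in vector and at 127 and 117 in ADAR1 p150. The ADAR1 p150 libraries were above the other 6. It rose by 0.56 ± 0.15 on the log2 scale against vector (adjusted p = 5.64e-03), and the mean in ADAR1 p150 was 1.30 times that in vehicle. By DESeq2 the rise of Lama5 had an adjusted p of 0.124, and without vector replicate 1 one of 0.0625. Hspg2, which encodes perlecan, the heparan sulphate proteoglycan of basement membranes, was at 62.5 and 78.0 CPM in vehicle, at 69.9 and 59.7 in 12-HETE, at 44.7 and 48.1 in vector and at 84.4 and 63.5 in ADAR1 p150. As for Fn1, both vector libraries were the lowest of the 8. It rose by 0.68 ± 0.20 (adjusted p = 0.0106) against vector, but its mean in ADAR1 p150 was 1.05 times that in vehicle. Without ADAR1 p150 replicate 1 the rise of Hspg2 was 0.45 (adjusted p = 0.176), and by DESeq2 its adjusted p was 0.148.

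Nid1, which encodes nidogen 1, a linker between laminin and type IV collagen, was at 29.1 and 33.2 CPM in vehicle and at 14.3 and 18.4 in 12-HETE. It fell by 0.93 on the log2 scale (SE 0.30, adjusted p = 0.0184). In vector it was at 15.5 and 19.2 CPM and in ADAR1 p150 at 23.9 and 15.9. Vehicle thus held the highest libraries and the other 3 groups overlapped. The fall with 12-HETE had an adjusted p of 0.0873 without vehicle replicate 5 of 0.157 without 12-HETE replicate 4 and of 0.159 by DESeq2.

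Col4a1 and Col4a2, whose chains form the common type IV collagen together, start 21 bases apart on opposite strands of chromosome 8, at positions 11312826 and 11312805. Col4a1 was at 126 to 172 CPM over the 8 libraries and did not pass with 12-HETE (0.05, 95% interval -0.23 to 0.33) or with ADAR1 p150 (0.21, -0.07 to 0.48). Col4a2 was at 49.8 to 82.3 CPM, and its log2 fold changes were -0.20 (-0.59 to 0.19) and 0.44 (0.05 to 0.82), with an adjusted p of 0.0859 for the second. The partners did not pass in either contrast. Col4a4, a chain of the type IV collagen found in kidney and other specialised basement membranes, was at 15.4 and 6.64 CPM in vehicle and at 4.28 and 3.83 in 12-HETE. Its fall by 1.41 on the log2 scale (SE 0.52, adjusted p = 0.0379) leaned most on vehicle replicate 4, since without that library it was -0.70. Among the fits that left out a library of this contrast, the call was kept only without vehicle replicate 5. The call was also lost without a count minimum (adjusted p = 0.0576). In the other experiment Col4a4 was at 10.04 and 12.2 CPM in vector and at 6.33 and 6.80 in ADAR1 p150 (adjusted p = 0.256).

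Of the other collagens, Col14a1, a collagen that associates with the surface of fibrils, was at 5.14 and 5.81 CPM in vehicle and at 16.4 and 15.3 in 12-HETE. It was at 3.65 and 0.87 CPM in vector and at 26.7 and 19.7 in ADAR1 p150. All 4 treated libraries were above all 4 controls. It rose by 1.52 ± 0.45 on the log2 scale after 12-HETE (adjusted p = 9.08e-03) and by 3.32 ± 0.51 under ADAR1 p150 (adjusted p = 5.00e-06). Vector held 4 and 1 counts of it, so the size of the second change is imprecise, with a 95% interval from 2.28 to 4.37 and values of 4.59 without vector replicate 1 and 2.64 without vector replicate 2. The rises differed by 1.81, which did not pass (adjusted p = 0.114). By DESeq2 the rise with 12-HETE had an adjusted p of 0.121, and in a fit without 1 of its 4 libraries it passed only without 12-HETE replicate 5.

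Col23a1, a transmembrane collagen, was at 20.1 and 15.7 CPM in vector and at 8.44 and 8.32 in ADAR1 p150. It fell by 1.08 on the log2 scale (SE 0.40, adjusted p = 0.043), and the call was lost in each fit without 1 of the 4 libraries, at adjusted p = 0.0632 to 0.229. In vehicle it was at 13.7 and 7.47 CPM and in 12-HETE at 5.71 and 3.83, with a log2 fold change of -1.12 ± 0.49 that did not pass (adjusted p = 0.0851). Col17a1, a transmembrane collagen of hemidesmosomes, was named after its values were seen, because its effects differed between the experiments. It was at 34.2 and 20.7 CPM in vehicle, at 15.7 and 16.1 in 12-HETE, at 31.0 and 27.1 in vector and at 39.4 and 35.5 in ADAR1 p150. The 12-HETE libraries were the lowest and the ADAR1 p150 libraries the highest. It fell with 12-HETE by 0.78 on the log2 scale (adjusted p = 0.0473), did not pass with ADAR1 p150 (0.37, adjusted p = 0.322), and the effects differed by 1.15 (adjusted p = 0.0444). Col17a1 lies on chromosome 19, where 228 tested genes had medians of -0.35 (12-HETE) and -0.23 (ADAR1 p150). The part of this shift in the change of Col17a1 was not tested.

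**Figure D3:**
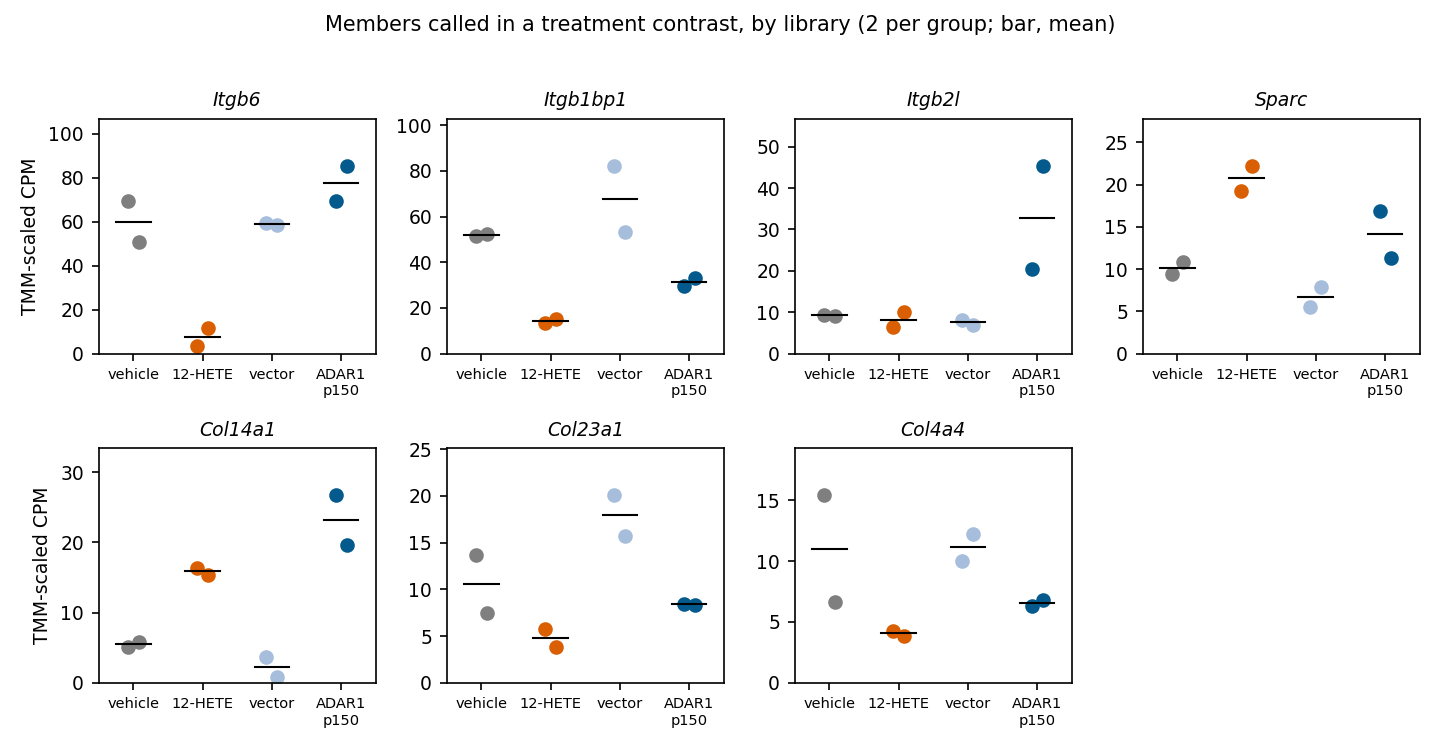
TMM-scaled CPM of 7 members called in a treatment contrast, with one point per library, 2 libraries per group and a bar at the group mean. Itgb6 drops to 3.57 and 11.5 CPM in 12-HETE while its other libraries lie between 50.6 and 85.4, and Itgb1bp1 is lower and Col14a1 higher in both treated groups than in their controls.

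Among the integrin beta subunits, Itgb6 had the largest change of any member with 12-HETE. Its product pairs with integrin alpha-v to bind fibronectin and to activate latent TGF-beta, and it is found on epithelial cells. Itgb6 was at 69.3 and 50.6 CPM in vehicle and at 3.57 and 11.5 in 12-HETE, which were 81 and 61 counts against 5 and 15. In vector it was at 59.3 and 58.5 CPM and in ADAR1 p150 at 69.6 and 85.4. The 12-HETE libraries stood below the other 6, which lay between 50.6 and 85.4. It fell by 3.0 on the log2 scale with 12-HETE (SE 0.32, adjusted p = 2.75e-09) and did not pass with ADAR1 p150 (0.39 ± 0.21, adjusted p = 0.176), and the effects differed by 3.39 ± 0.39 (adjusted p = 1.20e-07). The log2 fold change with 12-HETE was -2.37 without 12-HETE replicate 4 and -4.03 without 12-HETE replicate 5, and the call was kept in both. Itgav, the gene of its partner subunit, has a name outside the rule and was at 61 and 62 counts in vehicle, 90 and 58 in 12-HETE, 49 and 56 in vector and 97 and 56 in ADAR1 p150.

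Itgb2l, a gene related to the leukocyte integrin subunit Itgb2, was at 9.42 and 9.13 CPM in vehicle, at 6.42 and 9.96 in 12-HETE, at 8.22 and 6.99 in vector and at 20.4 and 45.4 in ADAR1 p150. The ADAR1 p150 libraries were above the other 6 and differed from each other by more than the other groups did. It rose by 2.09 ± 0.40 on the log2 scale with ADAR1 p150 (adjusted p = 1.35e-04) and was at -0.19 ± 0.49 with 12-HETE (adjusted p = 0.82), and the effects differed by 2.28 ± 0.65 (adjusted p = 0.0134). The rise was 1.41 (adjusted p = 0.0249) without ADAR1 p150 replicate 2. Itgb2 itself was at 0 to 2 counts per library, and the leukocyte markers were at or near 0.

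Itgb1 was at 107 and 121 CPM in vehicle, at 148 and 155 in 12-HETE, at 79.4 and 117 in vector and at 138 and 108 in ADAR1 p150. It rose by 0.41 ± 0.15 on the log2 scale with 12-HETE (adjusted p = 0.0428), without overlap between the groups, and the change with ADAR1 p150 (0.32 ± 0.16, adjusted p = 0.146) did not pass. The rise did not pass in 7 of the alternative fits, such as that with RLE factors (adjusted p = 0.0567), or in any fit without 1 of its 4 libraries (0.0987 to 0.24). Itgb4, which pairs with Itga6 to form the laminin receptor of hemidesmosomes, was at 77.9 to 125 CPM over the 8 libraries and did not pass in either contrast (0.14 and 0.29, adjusted p = 0.557 and 0.196). Its exons share 537 bases with those of B230344G16Rik on the opposite strand, which held 1391 to 2552 counts per library, and whether strand was used in counting is not given in the sources used here. The part of such reads in the value of Itgb4 was not tested.

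Of the alpha subunits, Itga6 was at 140.4 and 166 CPM in vehicle and at 121 and 92.7 in 12-HETE, so that it fell by 0.51 on the log2 scale (SE 0.16, adjusted p = 0.0126). The fall had an adjusted p of 0.0918 without vehicle replicate 5 of 0.216 without 12-HETE replicate 5 and of 0.0847 by DESeq2. In vector it was at 111 and 114 CPM and in ADAR1 p150 at 143 and 98.3, with overlap and an adjusted p of 0.704. None of the other 4 tested alpha subunits, Itga1, Itga2, Itga3 and Itga4, passed in either contrast. All 5 had positive log2 fold changes with ADAR1 p150, between 0.10 and 0.85.

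Itgb1bp1 came in through the open end of the integrin name pattern and encodes a cytoplasmic protein that binds the tail of integrin beta 1 and restrains its activation, not an integrin. It was at 51.4 and 52.3 CPM in vehicle and at 13.6 and 15.3 in 12-HETE. In vector it was at 82.2 and 53.3 CPM and in ADAR1 p150 at 29.5 and 33.3. All 4 treated libraries were below all 4 controls. It fell by 1.84 on the log2 scale with 12-HETE (SE 0.27, adjusted p = 1.67e-06) and by 1.1 with ADAR1 p150 (SE 0.22, adjusted p = 2.86e-04), and the difference of 0.74 did not pass (adjusted p = 0.18). Without vector replicate 1 the second fall was -0.76 (adjusted p = 0.0501). The 170 tested genes of its chromosome, 12, had median log2 fold changes of -0.43 (12-HETE) and -0.35 (ADAR1 p150), and relative to these Itgb1bp1 was at -1.41 and -0.75. Its exons share bases with Asap2 and Cpsf3 on the opposite strand, which held 21 to 39 and 5 to 20 counts per library. The part of either in the fall was not tested.

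Fat1 is an atypical cadherin of the cell surface and neither a matrix protein nor an integrin. It was at 126 and 150.2 CPM in vehicle, at 148 and 142 in 12-HETE, at 71.2 and 94.4 in vector and at 174 and 127 in ADAR1 p150. Both vector libraries were below the other 6, which overlapped. Fat1 rose by 0.86 ± 0.16 on the log2 scale with ADAR1 p150 (adjusted p = 1.09e-04) and did not pass with 12-HETE (0.07, 95% interval -0.23 to 0.38), and the effects differed by 0.79 ± 0.22 (adjusted p = 0.0127). Vector was lower than vehicle by -0.73 (adjusted p = 0.06), and the mean in ADAR1 p150 was 1.09 times that in vehicle.

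**Figure D4:**
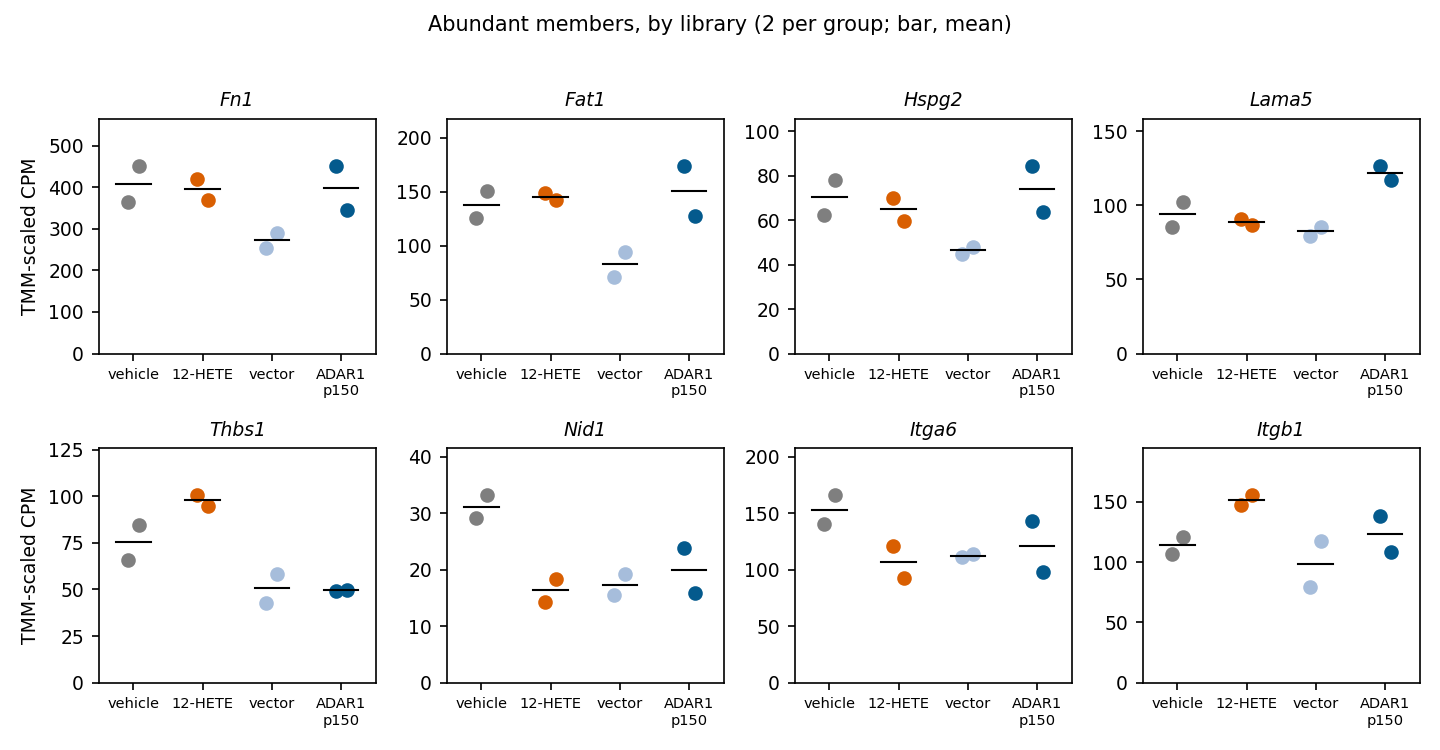
TMM-scaled CPM of 8 abundant members, with one point per library, 2 libraries per group and a bar at the group mean. For Fn1, Fat1 and Hspg2 the vector libraries are the lowest and the ADAR1 p150 means are 0.97, 1.09 and 1.05 times those of vehicle, whereas Lama5 in ADAR1 p150 lies above every other library.

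The control groups were compared because these rises were measured against vector. No member was called between vector and vehicle, where 0.0435% of all genes were, and 1 member, Fn1, had an adjusted p under 0.05, where 0.116% of all genes had. By the unadjusted p of edgeR's quasi-likelihood test 10 of the 31 members (32.3%) were under 0.05, where 11.5% of all genes were. DESeq2 called none, and 3 members (9.68%) had an unadjusted p under 0.05 there, where 3.36% of all genes had. The median log2 fold change of vector against vehicle was -0.19 over the tested members and -0.0083 over all genes. Whether the libraries of both experiments were prepared together is given by neither the labels nor the paper's methods. The empty vector and any difference between the experiments therefore cannot be told apart in this comparison. Of the 2 mesenchymal and fibroblast markers tested (Vim and Dcn), 0 passed the adjusted p between vector and vehicle or with ADAR1 p150, and of the 3 epithelial markers tested 0 passed between vector and vehicle. Krt8 came closest, at -0.81 ± 0.20 on the log2 scale (adjusted p = 0.0884), with 51 and 59 counts in vector and 79 to 145 in the other groups. Krt18 was at -0.41 (adjusted p = 0.405) and Krt14 at -0.54 (adjusted p = 0.537) in that comparison. The summed level of 5 mesenchymal and fibroblast markers was 38.3 and 49.8 CPM in vector, 52.9 and 82.3 in ADAR1 p150, 51.4 and 61.4 in vehicle and 66.6 and 77.0 in 12-HETE, with Lum at 0 counts in all libraries and Dcn at 8 counts in vector replicate 1 against 26 to 57 elsewhere. The summed level of 6 epithelial markers was 134 and 167 CPM in vector, 176 and 126 in ADAR1 p150, 191 and 254 in vehicle and 196 and 181 in 12-HETE. With ADAR1 p150 Krt8 (0.59, adjusted p = 0.0314) and Krt14 (0.91, adjusted p = 0.0247) rose on the log2 scale and Krt18 was at -0.88 (adjusted p = 1.98e-03). The part of these markers in the changes of Fn1, Fat1 and Hspg2 was not tested, and fewer cells of a type and less RNA per cell cannot be told apart in bulk libraries.

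The effects of ADAR1 p150 and of 12-HETE were compared member by member through the difference of both log2 fold changes. By adjusted p and a 2-fold difference 3 members were called, Itgb6, Itgb2l and Col17a1, where 8.33% of all genes were. By adjusted p alone 7 were, where 15% of all genes were, the others being Fat1, Fn1, Lama5 and Hspg2. The call of Itgb6 held in all 8 fits that left out 1 library, that of Itgb2l in 5 of 8 (not without vehicle replicate 4, 12-HETE replicate 4 or ADAR1 p150 replicate 2) and that of Col17a1 in 1 of 8 (without vehicle replicate 5). Col17a1 was also not called by DESeq2 (adjusted p = 0.217), with the replicate block (0.0786), with a minimum mean count of 5 (0.0646) or with no minimum (0.16), and Itgb2l had no adjusted p in DESeq2. The adjusted p stayed under 0.05 in 5 of these 8 fits for Fat1, 4 for Fn1 and 2 each for Lama5 and Hspg2, and by DESeq2 it was 0.0857, 0.0708, 0.207 and 0.217. In all 7 the ADAR1 p150 effect was the higher one. For 27 of the 31 tested members the difference was above 0, beside 54.1% of all genes, with a median of 0.64 against 0.074. A level lower in vector than in vehicle raises this difference, and the members' median of vector against vehicle was -0.19. The part of the controls in the 27 was not tested. The contrasts share no library, and 15 of 31 members had the same sign in both (48.4%), beside 61.9% of all genes. Across these 31 genes, which are not independent replicates, Pearson's r between the contrasts was 0.59 and Spearman's rho 0.48, beside 0.49 and 0.37 over all genes.

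Genes that build, cross-link or read the matrix but lie outside the name rule were taken from a list of 76, of which 36 were tested. By the 2-fold rule 1 was called higher and 1 lower with 12-HETE, beside 6.12% and 8.25% of all genes, and 4 higher and 1 lower with ADAR1 p150, beside 8.11% and 4.69%. Vcan, which encodes the proteoglycan versican, was called higher in both, with log2 fold changes of 1.47 (adjusted p = 0.0282) and 1.95 (adjusted p = 2.15e-03). It held 6 and 4 counts in vehicle and 7 and 3 in vector. The treated libraries held 14 and 18 counts in 12-HETE and 20 and 28 in ADAR1 p150. Like Col14a1, Vcan passed the count minimum through the treated groups in which it was high, so the size of its changes is imprecise. Src, a kinase that signals from integrins, fell by 1.42 with 12-HETE (adjusted p = 7.50e-08), from 116 and 130 counts to 54 and 51. Src was also lower in ADAR1 p150 than in vector, by less than 2-fold (-0.75, adjusted p = 6.21e-04), with 88 and 84 counts against 120 and 116. The effects on Src differed by 0.67, with an adjusted p of 0.0594. With ADAR1 p150, P4ha1, a prolyl hydroxylase of collagen synthesis, rose by 1.37 (adjusted p = 1.57e-04), Timp3, an inhibitor of matrix metalloproteinases, by 1.1 (adjusted p = 0.0184) and Itgae, an integrin alpha subunit, by 1.04 (adjusted p = 4.32e-03). Pxn, the focal adhesion adaptor paxillin, fell by 1.32 (adjusted p = 0.0299). Itgae also rose with 12-HETE, by less than 2-fold (0.92, adjusted p = 9.13e-03), and its effects differed by 0.12 (adjusted p = 0.89). The effects did not differ for P4ha1 and Pxn at adjusted p under 0.05 (0.176 and 0.781), whereas those on Timp3 differed by 2.01 (adjusted p = 9.33e-03). Over the 36, the median was -0.02 in the 12-HETE contrast and 0.18 in the ADAR1 p150 contrast (log2).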

How the data were processed

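RNA was sequenced from 8 libraries of EO771 cells. The raw counts per gene were deposited by the authors, who used STAR for alignment to GRCm38 and featureCounts for counting. The paper's methods describe removal of duplicates for these groups, and neither they nor the labels give the strand setting of the counting. The labels and the paper's methods name different extraction and library kits. No column was left unmapped.

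The fit covered genes whose mean over all libraries reached 10 counts and used edgeR 4.0.16 (limma 3.58.1, R 4.3.3), with TMM factors, 1 coefficient per group and the quasi-likelihood test, with Benjamini-Hochberg adjustment across 6901 genes. The SE is the log2 fold change divided by the square root of F. The steps were checked on simulated data. Precision is limited by totals of 1101767 to 1537037 counts, and floors of 3 counts cover counting error only. CPM values are counts scaled by the TMM-adjusted library size. AY036118 took 44.4% to 50.3% of the counts.

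The members and lists were chosen with earlier results of these data known. Genes named are the members called in a treatment contrast, Fn1, Fat1, Sparc, Hspg2, Nid1, Nid2 and the 10 members of highest mean count. Positions, exon lengths and opposite-strand exons came from GENCODE M21, and promoter windows from RefSeq, both on GRCm38. Alternatives were DESeq2 1.42.0, RLE factors, other count minimums, a fit of the 4 libraries of an experiment, a replicate block, leaving out AY036118 or each library, and adjusted p alone. The crossed block was added after seeing the data. The values of 1 called member are not reported here, though it is included in the counts and medians.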

Additional observations from a re-analysis of the deposited data

Results flagged for a closer look

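The effect of ADAR1 p150 minus the effect of 12-HETE had an adjusted p under 0.05 in edgeR's quasi-likelihood test for 7 members. It was 3.39 on the log2 scale for Itgb6 (adjusted p = 1.20e-07), whose 12-HETE libraries were below the other 6. For Itgb2l it was 2.28 (adjusted p = 0.0134), with both ADAR1 p150 libraries above the other 6, and for Col17a1 1.15 (adjusted p = 0.0444). The call of Col17a1 was lost with DESeq2, the replicate block, both lower count minimums and 7 of the 8 fits that left out 1 library. Smaller differences were found for Hspg2 at 0.79 (adjusted p = 0.0457), Fat1 at 0.79 (adjusted p = 0.0127), Lama5 at 0.65 (adjusted p = 0.0396) and Fn1 at 0.60 (adjusted p = 0.0139). For Fn1, Fat1 and Hspg2 the vector libraries were the lowest of the 8. The groups of 2 libraries are too small for a search for single outlying libraries.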

How the results depend on the processing

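The call of Itgb6 and Itgb1bp1 with 12-HETE was kept under every alternative in which they were tested. The counts of called members moved more. With DESeq2 they were 3 with 12-HETE, 3 with ADAR1 p150 and 1 for the difference, instead of 6, 5 and 3, and Col4a4 with 12-HETE and Col23a1 with ADAR1 p150 had no adjusted p there. With 10 counts in every library 18 members were tested and 1 was called in each of the 3. By adjusted p alone the counts were 10, 9 and 7, and 1 between vector and vehicle. Leaving out 1 library gave 3 to 6, 2 to 5, 1 to 3 and 0. The lowest counts were 3 without 12-HETE replicate 4, 2 without vector replicate 1, and 1 without vehicle replicate 4 or 12-HETE replicate 4. Without a count minimum the median of ADAR1 p150 against vector was 0.20 instead of 0.32.

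Same-numbered libraries did not deviate together across the tested genes (r = -0.08 and -0.11). With 2 libraries per group this cannot tell whether they shared a culture or a preparation, which the labels do not give. The replicate block gave 5, 4 and 2 called members, with Col4a4 (adjusted p = 0.0513), Col23a1 (adjusted p = 0.0612) and, for the difference, Col17a1 (adjusted p = 0.0786) lost. The crossed pairing, chosen after seeing the data, gave 5 called members with ADAR1 p150 and 3 for the difference.

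Reversals concerned values near 0. With 12-HETE, Fat1 was -1.72e-04 without AY036118, and Col4a1 was -0.0029 without a count minimum and -0.025 without AY036118. Itga6 with ADAR1 p150 was -0.0042 without a count minimum. Leaving out 1 library moved the 12-HETE values of Itgb2l from -0.52 to 0.10, Fn1 from -0.19 to 0.045, Fat1 from -0.046 to 0.14, Col4a1 from -0.13 to 0.20 and Itgb4 from -0.055 to 0.31, and the ADAR1 p150 values of Nid1 from -0.13 to 0.46, Itga6 from -0.19 to 0.34 and Thbs1 from -0.24 to 0.21. Of the other values of single genes, 21 lost their adjusted p under 0.05 outside these fits and 31 within them. With these totals, changes of members under about 20 counts are imprecise.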

Other observations

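Of the 5 members that were not tested, Col18a1, a basement membrane collagen whose fragment is endostatin, was at 5 and 6 counts in vector and at 12 and 17 in ADAR1 p150. Col8a1 was at 6 and 9 counts in vector and at 18 and 9 in ADAR1 p150. Itga2b was at 5 to 13 counts and Itga5, the main fibronectin receptor subunit, at 3 to 12 counts over the 8 libraries, with the highest value in vehicle replicate 5. Itga11 was at 8.01 ± 0.77 CPM (SD, n = 2) in vehicle and at 4.03 ± 1.36 in 12-HETE.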
